A study of Mus musculus with 33 samples.

Results

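Frontal cortex RNA of 6 sleep-deprived mice was compared between genotypes, 3 libraries from Mef2c f/f mice and 3 from Mef2c-cKO mice, out of 33 libraries in the series. Both genotypes carried the floxed Mef2c allele, in which loxP sites flank an exon of the DNA-binding part, on a C57BL/6J background, and all mice were adult males. The study backcrossed the floxed line to this background but allowed that it may not be fully congenic. The part of any remaining difference in background between the genotypes was not tested. Mef2c-cKO mice also carried a Camk2a-Cre transgene (the T29-1 line), which is active in excitatory neurons of the forebrain, so recombination is aimed at these cells. The study found in tail samples that some offspring of this cross carried an allele recombined in the germline, which the labels do not give by library. No group with Cre alone was among these libraries, and the effects of the transgene and of the deletion therefore cannot be told apart here. Sleep deprivation (SD) lasted 6 hr on a slowly moving treadmill and ended at sampling, and mice at control sleep (CS) were taken at the same time of day. All mice were first accommodated to the treadmill for weeks under a light-dark cycle. For RNA sequencing they were then moved to constant darkness before the experimental day. The CS libraries, 4 of Mef2c f/f and 3 of Mef2c-cKO, served as a second set in which the same genotype difference was measured. Genes were kept where CPM (a read count scaled to the depth of its library) was at least 1 in all 3 libraries of either group after SD, which held for 12774 of 21565 genes.

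MEF2C is a transcription factor that binds an AT-rich sequence in promoters and enhancers. In resting neurons class IIa histone deacetylases hold it in a repressing state, and calcium entry and calcineurin release it, so that it links neuronal activity to the number and strength of synapses. In skeletal and heart muscle the same family switches on contractile genes.

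Levels are given as rescaled CPM, which is CPM divided by a factor per library that puts the typical gene at the same level in all libraries. Fold changes are log2 differences of rescaled CPM with 0.5 added, Mef2c-cKO over Mef2c f/f, so that a positive value is a higher level in Mef2c-cKO. Differentially expressed genes (DEGs) had an adjusted p of 0.05 or less in limma and a log2 fold change of 0.3 or more in either direction, and the words rose and fell are used for these alone. The total of recovered reads went from 29593825 to 94678945 per library after SD, and the deepest, Mef2c-cKO replicate 7, held more reads than both of the other Mef2c-cKO libraries together. A level of 3 reads was 0.032 to 0.101 CPM in these libraries.

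Mef2c itself did not report on the deletion, because its level is counted over the whole gene. It stood at 1248, 1134 and 1404 rescaled CPM in Mef2c f/f and at 1498, 1114 and 1316 in Mef2c-cKO, groups that overlapped (log2 fold change 0.05 ± 0.13 SE, limma, adjusted p = 0.82). The remaining MEF2 factors were no different by this test, with log2 fold changes of 0.12 for Mef2a and 0.03 for Mef2d. Among their partners, Rcan2, a calcineurin inhibitor, fell from 242, 284 and 253 to 161, 149 and 167 rescaled CPM (log2 fold change -0.70, limma, adjusted p = 0.00146). Hdac7, a class IIa histone deacetylase, fell by 0.60 on the log2 scale (limma, adjusted p = 0.0201). Rcan2 and Hdac7 were the DEGs among 12 tested genes of the MEF2 pathway, in which no gene rose. Over all genes tested 15.1% were DEGs and 9.10% rose, so the count is near that share and is not read as a result about the pathway. With the olfactory bulb score described next, Rcan2 kept its call and Hdac7 did not.

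Libraries differed in their level of olfactory bulb markers, and the difference ran with genotype after SD. The cortex was the labelled tissue, and Slc17a7, the vesicular glutamate transporter of cortical excitatory neurons, was at 488 to 507 rescaled CPM in Mef2c f/f and 464 to 631 in Mef2c-cKO. All 6 olfactory bulb markers on the list (Th, Calb2, Cdhr1, Eomes, Doc2g and Ms4a15) were nevertheless higher in the 3 Mef2c-cKO SD libraries than in any of the 3 Mef2c f/f SD libraries. Their summed level was 6.34 to 9.51 rescaled CPM in Mef2c f/f SD and 50.7 to 118.6 in Mef2c-cKO SD, and Eomes and Ms4a15, which define the projection neurons of the bulb, were at or near 0 in Mef2c f/f SD. At CS the sum was 8.33 to 86.0 in Mef2c f/f, where replicate 3 alone was high, and 45.1 to 120.1 in Mef2c-cKO. A score for each library, the mean log2 level of the 6 genes, went from 0.26 to 0.48 in Mef2c f/f SD and from 2.72 to 3.93 in Mef2c-cKO SD, while 20 wild-type libraries spread from 0.51 to 3.91. Values with the score as a covariate, fitted over the 13 libraries of both genotypes, are given below for many of the results. This fit was chosen after the data were seen, and the part of bulb tissue in any result was not tested. After SD the score ran with genotype, and replicate 3 at CS alone was high among the Mef2c f/f libraries. The fit therefore separates score and genotype poorly, and a call lost with it does not show that a difference is absent.

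**Figure D1:**
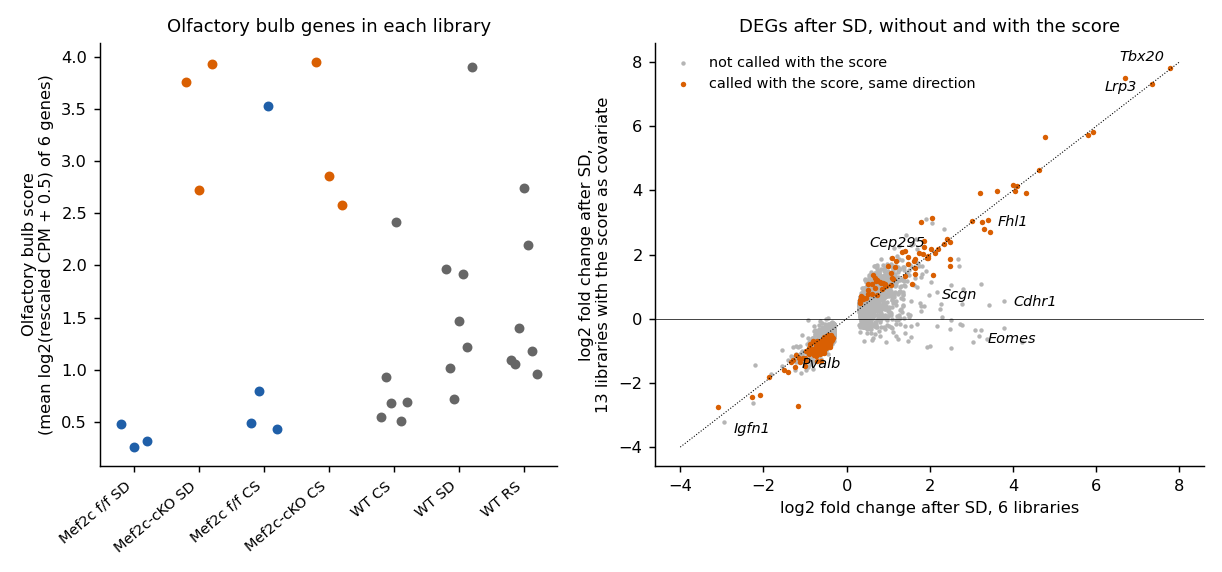
Left, the olfactory bulb score (mean log2 of rescaled CPM with 0.5 added over 6 marker genes) of each library in the 7 groups of the series; the 3 Mef2c f/f SD libraries lie at the bottom (0.26 to 0.48) and the 3 Mef2c-cKO SD libraries near the top (2.72 to 3.93). Right, each point is a DEG after SD, with the log2 fold change of the 6 SD libraries on the x axis and that of the fit over 13 libraries with the score as a covariate on the y axis. Lrp3 and Tbx20 stay on the dotted line of equal values, and Cdhr1, Scgn and Eomes lie far below it. Cdhr1 and Eomes are genes of the score, so for them this follows from the fit.

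Mef2c-cKO replicate 6 also stood apart. Of 30 activity-regulated effector genes tested, 22 had their highest level of the 6 libraries there, as had 10 of 21 immediate early transcription factors and 11 of 14 microglial markers. Fos was at 45.0 rescaled CPM in it against 8.27 and 4.97 in the other Mef2c-cKO libraries. Within each genotype, rho (Spearman, over genes) between SD libraries was 0.987 to 0.997, and no pair was alike enough to be a repeat of 1 library.

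After SD, 1927 of the 12774 genes were DEGs (15.1%), of which 1162 rose (9.10%) and 765 fell (5.99%). The 3 libraries of either genotype lay wholly above or below those of the other for 40.3% of all genes tested (21.6% higher and 18.7% lower in Mef2c-cKO), and for all DEGs but 1. Rises were larger, with a median log2 fold change of 0.64 against -0.46 for falls, and 233 genes rose but 45 fell by 2-fold or more. The genes that rose were low in Mef2c f/f SD (median of 6.49 rescaled CPM) and those that fell were high (83.7), where the median over all tested genes was 27.1. With CPM as deposited 1694 genes rose and 492 fell, with quantile normalization 697 and 731, and with values corrected for GC content and length 818 and 1088, so the balance of directions depends on the scaling. Without Mef2c f/f replicate 1 there were 822 DEGs and without Mef2c f/f replicate 3 there were 948.

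**Figure D2:**
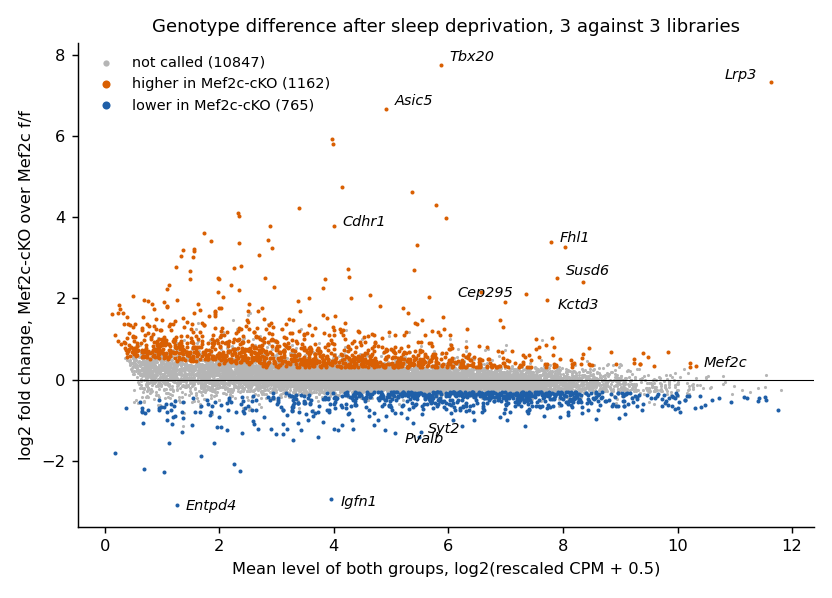
Each point is 1 of the 12774 genes tested after SD, with the mean level of both groups on the x axis and the log2 fold change on the y axis, called genes in colour. The 1162 genes that rose reach further from 0 than the 765 that fell, and Lrp3 stands alone at a high level with a log2 fold change of 7.33; Entpd4 was at 0 in Mef2c-cKO, so its point depends on the 0.5 added.

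With the olfactory bulb score as a covariate 228 genes were called, 82 higher and 146 lower, and 187 of these had the same call in the 6 SD libraries. The same 13 libraries without the covariate gave 1019. Of the 765 genes that fell, 763 kept a negative value with the score, and their median moved from -0.46 to -0.54. Of the 1162 that rose, 1057 kept a positive value, and the median of the 1162 moved from 0.64 to 0.62. Of the 233 that rose by 2-fold or more, 137 kept that size. Mef2c f/f CS replicate 3, which the SD comparison did not use, was looked at because of its high score. It was 2-fold or more above the other 3 libraries of its group for 48 of these 233 genes (20.6%), against 7 of 10847 genes not called after SD (0.0645%). The 2 sets were not matched for level, and genes that rose were low in Mef2c f/f SD, so these shares are not strictly comparable. The part of bulb tissue in these rises was not tested.

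Lrp3 showed the largest rise of any gene at a high level. It codes for a receptor of the low density lipoprotein receptor family and lies on chromosome 7 (GRCm38, GENCODE annotation, 35200027 to 35215498, minus strand). It stood at 37.2, 43.0 and 36.6 rescaled CPM in Mef2c f/f and at 6133, 6295 and 6515 in Mef2c-cKO (log2 fold change 7.33 ± 0.08 SE, limma, adjusted p = 1.04e-09). The spread within each genotype was small beside that gap, and the value with the olfactory bulb score was 7.30.

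Tbx20, a T-box transcription factor of the developing heart and hindbrain (chromosome 9, 24718138 to 24774303, minus strand), was all but silent in Mef2c f/f at 0.039, 0.054 and 0 rescaled CPM. In Mef2c-cKO it reached 113, 128 and 104 (log2 fold change 7.76 ± 0.11 SE, limma, adjusted p = 4.62e-09, and 7.81 with the score). Olfr1510, an olfactory receptor gene, had no read in Mef2c f/f SD and 37.1, 27.4 and 26.4 rescaled CPM in Mef2c-cKO, at least 1431-fold higher against a floor of 3 reads over the group. Its log2 fold change was 5.93 in the SD libraries and 5.83 with the score. Asic5, an acid-sensing ion channel, and Acoxl, an acyl-CoA oxidase of peroxisomes, each had 2 reads in the 3 Mef2c f/f libraries together. Asic5 was then at 70.7, 82.7 and 24.1 rescaled CPM in Mef2c-cKO, a ratio of 3318 (95% counting interval 918 to 27399), and Acoxl at 41.4, 35.3 and 14.99, a ratio of 1795 (497 to 14831).

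A group of genes with a sure level in Mef2c f/f rose several-fold with almost no spread. Fhl1, a LIM-domain protein of muscle and other tissues, went from 38.2, 37.2 and 37.8 to 411, 416 and 383 rescaled CPM (log2 fold change 3.40, limma, adjusted p = 1.81e-08). Susd6, a membrane protein with a sushi domain, went from 73.9, 73.0 and 66.8 to 421, 377 and 415 (2.50, limma, adjusted p = 5.61e-07). Kctd3, which binds HCN channels, went from 84.1, 86.8 and 86.4 to 326, 360 and 318 (1.96, limma, adjusted p = 1.7e-06). These 3 genes kept their call with the score, at 3.07, 2.40 and 1.94. Cep295, a protein of the centriole, went from 59.7, 60.9 and 62.1 to 280, 258 and 258 (2.11 ± 0.06 SE, limma, adjusted p = 5.61e-07), and is taken up again with the CS libraries.

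Col4a6, a basement membrane collagen chain, rose by 4.62 on the log2 scale, Ndst4, an enzyme that modifies heparan sulphate, by 4.31, Myof, a membrane repair protein, by 3.99, Diaph3, a formin that builds actin filaments, by 3.31 and Abi3bp, a matrix protein, by 2.69. Their adjusted p lay between 1.26e-05 for Abi3bp and 0.00382 for Myof in limma. Myof varied most, with 185, 138 and 29.7 rescaled CPM in Mef2c-cKO replicates 5, 6 and 7, and Asic5, Acoxl, Skint6, Col4a6 and Diaph3 were also lowest in replicate 7. Sult6b1, Vsig8, Pappa and Timd2 rose from levels near 0, by 4.10, 4.04, 3.45 and 3.61 on the log2 scale, and Timd2 had no read in Mef2c f/f SD, so that its rise was at least 304-fold. Of the 20 largest rises, 15 were called with the olfactory bulb score as well. The 5 that were not are Cdhr1, Frmd7, Adamts19, Scgn and Vipr2. Cdhr1, a cadherin-type protein, is itself a marker in the score and went from 3.79 to 0.55. Frmd7 stood at 22.8, 9.47 and 25.9 rescaled CPM in Mef2c-cKO against 0.37 to 0.69 in Mef2c f/f, a log2 fold change of 4.23 that became -0.73. Trh, the thyrotropin-releasing hormone precursor, went from 2.80 to 0.93.

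**Figure D3:**
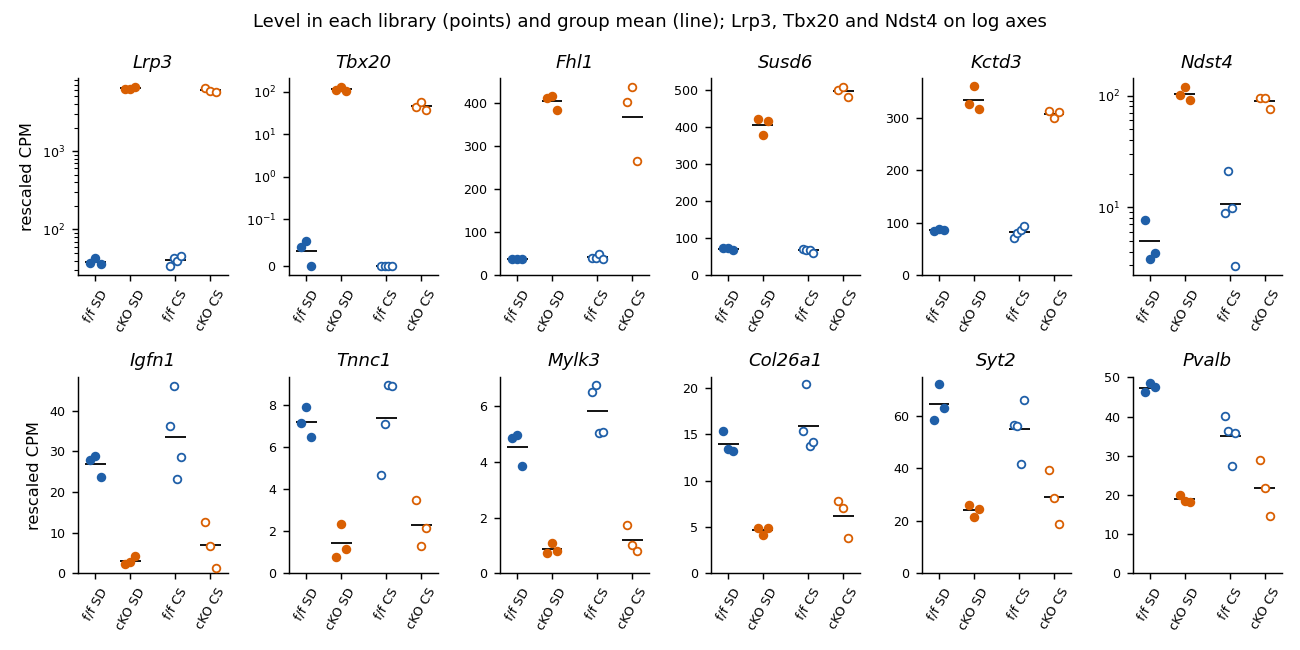
Rescaled CPM of 12 genes in each library (points) with the group mean (line), Mef2c f/f in blue and Mef2c-cKO in orange, SD filled and CS open. In all 12 panels the 3 Mef2c-cKO SD libraries lie apart from the 3 Mef2c f/f SD libraries, for example at 6133 to 6515 against 36.6 to 43.0 for Lrp3 and at 18.2 to 19.9 against 46.2 to 48.4 for Pvalb. The genes were chosen among DEGs, nearly all of which have no overlap.

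Falls were smaller, and several were in genes best known from muscle. Igfn1, a large immunoglobulin and fibronectin domain protein of muscle, fell from 28.0, 28.9 and 23.6 to 2.42, 2.70 and 4.31 rescaled CPM (log2 fold change -2.94 ± 0.18 SE, limma, adjusted p = 7.78e-05). Tcap, a protein of the sarcomere's Z-disc, fell from 2.17, 3.63 and 2.94 to 0.24, 0.061 and 0.31 (-2.27, limma, adjusted p = 0.000669). Tnnc1, the troponin C of heart and slow muscle, fell from 7.14, 7.91 and 6.49 to 0.80, 2.33 and 1.14 (-2.07, limma, adjusted p = 0.00219). Mylk3, the cardiac myosin light chain kinase, fell from 4.85, 4.96 and 3.84 to 0.73, 1.10 and 0.81 (-1.87, limma, adjusted p = 0.000406). All 4 had values as large or nearly as large with the score (-3.21, -2.45, -2.37 and -1.82), although Igfn1 did not pass the test there (limma, adjusted p = 0.0928). These 4 are named by the size of their fall, not as a list of muscle genes. Genes named by size were taken from those without overlap, so that the genotypes lie apart here follows from the selection. Fhl1 and Tbx20, described above with muscle and heart, rose.

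Other strong falls were in Tspan11 (-2.25), Rspo1, a secreted enhancer of Wnt signalling (-1.56), Col26a1, a collagen (-1.50), Hkdc1, a hexokinase (-1.42), Kcnk4, the potassium channel TRAAK (-1.35), Ovol2, a zinc finger factor (-1.34), and Exph5, an effector of vesicle traffic (-1.28). Exph5 had a narrow spread, from 64.0, 64.4 and 66.0 to 30.8, 23.3 and 25.7 rescaled CPM. Some of the 20 largest falls are uncertain because the genes have near-identical copies, namely Entpd4, Gstp2, Srp54a, C1ra, Vmn2r84, Vmn2r86 and perhaps Fam177a. The counts hold uniquely mapped reads alone, so a read that matches several copies is lost. The part of this in these falls was not tested. Entpd4 had no read in the 3 Mef2c-cKO SD libraries and 3.27, 3.66 and 4.38 rescaled CPM in Mef2c f/f, at least 203-fold lower, and Fam177a was likewise at 0 in all 3, at least 67.2-fold lower.

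Pvalb, Syt2 and Lhx6, which are found in parvalbumin interneurons, fell, beside a rise in general inhibitory genes. Pvalb, the calcium buffer that names these fast-spiking cells, fell from 46.2, 48.4 and 47.5 to 19.9, 18.5 and 18.2 rescaled CPM (-1.31 ± 0.07 SE, limma, adjusted p = 2.77e-05). Syt2, the calcium sensor of their terminals, fell from 58.2, 72.1 and 63.0 to 25.8, 21.6 and 24.4 (-1.41, limma, adjusted p = 0.000166), and Lhx6, a factor of their lineage, by 0.33. Within the 16 inhibitory markers tested 8 rose and 2 fell, with a median of 0.43 against 0.01 over all genes. The 2 that fell are Pvalb and Lhx6, and Syt2 stands on the presynaptic list instead. Over all genes 9.10% rose and 5.99% fell. Gad1 and Gad2, which make GABA, rose by 0.48 and 0.80, Slc32a1, which loads it into vesicles, by 0.39, and Dlx1, Dlx2, Dlx5 and Dlx6, transcription factors of inhibitory precursors, by 0.72 to 1.36. Sst and Vip, markers of other interneurons, had values of 0.21 and -0.13 and were not called.

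Beside these rises the olfactory bulb markers moved in the same libraries. With the score in the fit the median of the inhibitory list was 0.02 and none of its genes was called higher. Erbb4, a receptor of interneurons, was called lower (-1.10), and Dlx1 and Gad1 took values of -0.40 and -0.14. In the Mef2c f/f CS libraries other than replicate 3, Calb2 still stood at 4.08 to 5.60 rescaled CPM and Th at 1.11 to 1.53. The score may therefore also carry RNA of cortical cells. Whether the fit removed inhibitory signal of the cortex in this way was not tested. Pvalb and Syt2 kept most of their fall, at -1.18 and -1.29, without passing the test (limma, adjusted p of 0.093 and 0.102). Levels in bulk tissue cannot separate fewer cells of a type from less RNA in each.

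Promoter windows were searched for the MEF2 consensus on both strands, from 250 bases before to 50 after each RefSeq start site (GRCm38.p6). It was found in 204 of 9976 tested genes with a window (2.04%), in 13 of 886 that rose (1.47%) and in 12 of 581 that fell (2.07%), beside 179 of 8509 that were not called (2.1%). Over all 32851 windows the share was 3.19%. Of 162 DEGs with a window that were named by size or stood on a gene list, 84 higher and 78 lower, 4 held a match: Pvalb, Kcnj9, Gabrb2 and Dlg1, all lower. Over all DEGs the share among genes that fell was that of genes not called, so nothing is read from these 4. The upstream 250 bases of the first 3 and of Lrp3, which has no match, are shown 5′ to 3′ on the gene's strand with the match in capitals, which begins 180, 118 and 31 bases before the start site of Pvalb, Kcnj9 and Gabrb2. The windows are chr15:78206401-78206650 (minus strand), chr1:172329323-172329572 (minus), chr11:42420190-42420439 (plus) and chr7:35215346-35215595 (minus). No other motif was searched, and a match is not a site of binding.
Pvalb: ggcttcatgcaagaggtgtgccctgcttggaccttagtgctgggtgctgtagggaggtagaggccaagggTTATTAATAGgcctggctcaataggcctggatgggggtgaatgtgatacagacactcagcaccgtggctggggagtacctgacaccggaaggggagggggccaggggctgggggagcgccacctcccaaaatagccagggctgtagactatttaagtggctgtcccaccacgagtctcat
Kcnj9: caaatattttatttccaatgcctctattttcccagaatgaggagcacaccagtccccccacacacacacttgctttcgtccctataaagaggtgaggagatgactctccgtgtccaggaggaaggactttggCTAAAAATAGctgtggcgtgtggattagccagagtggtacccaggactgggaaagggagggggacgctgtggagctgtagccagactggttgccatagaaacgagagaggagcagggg
Gabrb2: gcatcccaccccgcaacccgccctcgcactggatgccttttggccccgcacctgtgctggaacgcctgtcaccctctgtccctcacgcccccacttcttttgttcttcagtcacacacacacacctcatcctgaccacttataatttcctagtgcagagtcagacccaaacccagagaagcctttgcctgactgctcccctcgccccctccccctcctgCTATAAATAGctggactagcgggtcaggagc
Lrp3: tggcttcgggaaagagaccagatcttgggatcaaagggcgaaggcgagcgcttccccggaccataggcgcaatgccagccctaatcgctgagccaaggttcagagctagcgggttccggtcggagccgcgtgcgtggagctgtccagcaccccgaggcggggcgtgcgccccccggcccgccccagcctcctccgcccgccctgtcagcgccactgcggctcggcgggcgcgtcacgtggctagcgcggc

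Genes of neuronal excitability were lower more often than the average gene. Of 67 ion channel genes tested, 24 fell and 6 rose (5.99% and 9.10% over all genes), with a median log2 fold change of -0.18. Potassium channels took the largest part, with 17 of 40 lower and 2 higher. Kcnj9, the GIRK3 channel opened by G proteins, fell from 121, 125 and 118 to 79.1, 52.8 and 79.3 rescaled CPM (-0.81, limma, adjusted p = 0.00931), Kcnq3, which carries the M-current, from 781, 837 and 868 to 514, 425 and 549 (-0.75, limma, adjusted p = 0.00329), and Kcnh5 from 204, 200 and 226 to 126, 120 and 137 (-0.71, limma, adjusted p = 0.00115). Kcnc1 and Kcnc2, Kv3 channels of fast firing, fell by 0.46 and 0.63. Scn1a, the sodium channel on which fast-spiking interneurons depend, fell from 405, 443 and 450 to 292, 226 and 259 (-0.74, limma, adjusted p = 0.00279). Cacna1a, the P/Q calcium channel of terminals, fell by 0.66 and Cacnb4, an auxiliary subunit, by 0.65.

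Against this run, Hcn4 and Hcn3, pacemaker channels, rose by 1.40 and 0.73. Kcnh1 rose from 246, 266 and 262 to 558, 398 and 384 rescaled CPM (0.77, limma, adjusted p = 0.00793). With the olfactory bulb score the median of the channel list was -0.34, and 6 of its genes were called, Kcnc1, Kcnc2, Kcnh5, Kcnq3, Scn1a and Cacnb4, all lower. Without Mef2c f/f replicate 1 or 3, 15 or 16 channel genes fell.

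Release sites and synaptic adhesion showed the same lean. Of 37 presynaptic genes 10 fell and 3 rose (median -0.21), and 6 of the 10 active zone genes were among those that fell. Over all genes 5.99% fell and 9.10% rose. Rims1, the active zone organiser, went from 1018, 978 and 1104 to 684, 586 and 723 rescaled CPM (-0.64, limma, adjusted p = 0.00481), and Rims3, Rims2, Erc2, Bsn and Unc13a fell by 0.35 to 0.82. Vamp1, the vesicle SNARE of fast synapses, fell by 0.66. The 3 that rose, Sv2c, Rab3b and Syn3, are all vesicle proteins, with values of 0.91, 0.51 and 0.31. Of 39 adhesion and scaffold genes 12 fell and 2 rose (median -0.20). Cbln4, a secreted synapse organiser, fell by 1.07, Ptprd by 0.74, Lrrtm4 by 0.73, Flrt2 by 0.62 and Lrrtm3 by 0.54, and the scaffolds Dlg1, Shank1, Shank2 and Dlgap2 by 0.34 to 0.37. Cbln1, its close relative, rose from 2.17, 1.60 and 2.23 to 4.99, 4.54 and 6.08 (1.19, limma, adjusted p = 0.00273). With the score 1 presynaptic and 5 adhesion or scaffold genes were called lower and none higher, with medians of -0.19 and -0.41. Without Mef2c f/f replicate 1 or 3, presynaptic falls numbered 6, and adhesion and scaffold falls 4 or 5.

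Receptor genes moved in both directions. Of 28 glutamate receptor genes 5 fell and 4 rose, where 5.99% and 9.10% did over all genes. Cacng2 (stargazin) and Cacng3, which carry AMPA receptors to the synapse, fell by 0.75 and 0.65, while Gria1, an AMPA pore subunit, and Cnih2, another auxiliary protein, rose by 0.39 and 0.43. Cacng2 stood at 89.7, 88.1 and 82.3 rescaled CPM in Mef2c f/f and 49.4, 52.8 and 52.4 in Mef2c-cKO (limma, adjusted p = 0.000425). The NMDA receptor subunits Grin2a and Grin2b fell by 0.66 and 0.49, and Grin3a, which forms receptors of low calcium permeability, rose by 0.79. Of the 12 GABA-A subunits 5 fell, among them Gabra4 by 0.42, Gabrb2 by 0.52 and Gabrg3 by 0.53, and Gabra5 alone rose, by 0.41. Gabrb2 stood at 486 to 535 rescaled CPM in Mef2c f/f and at 297 to 393 in Mef2c-cKO, ranges that did not overlap. Gabbr2, of the GABA-B receptor, fell by 0.56. With the olfactory bulb score 4 glutamate receptor genes were called, Cacng2, Cacng3 and Grin2b among them, all lower, and no gene of the GABA list was called in either direction. Gria1 was then at 0.06 and Gabra5 at -0.20.

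Layer genes moved in both directions, with 8 of 27 lower and 4 higher (5.99% and 9.10% over all genes). In the upper layers Lamp5, Rasgrf2, Cux2 and Cux1 fell by 0.49 to 1.15 and Mdga1 rose by 1.24. Lamp5 stood at 96.0, 113 and 102 rescaled CPM in Mef2c f/f and at 53.0, 37.6 and 49.6 in Mef2c-cKO (limma, adjusted p = 0.00128). Of 4 layer 4 genes, Rspo1, Rorb and Whrn fell by 1.56, 0.89 and 0.71 and none rose. In layer 6 and the subplate Syt6, Ntsr1 and Nxph4 rose by 0.84, 0.71 and 0.99 and none fell, and of 6 layer 5 genes 1 fell, Fezf2, by 0.33. Among 14 excitatory neuron markers 3 fell, among them Nrgn by 0.66 and Emx1 by 0.63. With the score in the fit 2 layer genes were called, both lower, and none higher. Syt6 was at 0.07, Mdga1 at -0.04, Rspo1 at -0.99 and Rasgrf2, which was still called, at -1.12.

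Clock genes were the list with the lowest median, -0.31, with 6 of 18 lower and none higher (5.99% and 9.10% over all genes). Rora and Rorb, nuclear receptors that activate clock genes, went from 669, 708 and 712 to 400, 316 and 452 rescaled CPM and from 245, 250 and 298 to 159, 116 and 156 (log2 fold changes of -0.85 and -0.89, limma, adjusted p of 0.00389 and 0.00438). Their opponents Nr1d1 and Nr1d2, the Rev-erb repressors, fell as well, by 0.47 and 0.56, as did Ciart and Hlf, by 0.66 and 0.72. Rora was the member of this list called with the olfactory bulb score (-1.02, limma, adjusted p = 0.0256). Rorb also marks layer 4 and stands in both lists.

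Few genes switched on by neuronal activity passed the test. Of 21 immediate early transcription factors 0 were DEGs in limma, where the shares over all genes were 9.10% and 5.99%. The 3 libraries of each genotype did not overlap for 2 of them, Jun and Jund, a smaller share than the 40.3% of all genes tested. Fos was at 14.9, 8.65 and 7.65 rescaled CPM in Mef2c f/f and 8.27, 45.0 and 4.97 in Mef2c-cKO, and Arc, which removes AMPA receptors from synapses, at 121, 97.6 and 41.2 and at 57.6, 145 and 47.9. Homer1 stood at 727, 591 and 484 against 435, 659 and 319 (-0.39 ± 0.25 SE). The spread within a genotype was as wide as the difference for each of these. Of 30 activity-regulated effectors, Scg2, a secretogranin of dense-core vesicles, rose from 151, 148 and 146 to 262, 329 and 220 (0.84, limma, adjusted p = 0.00489) and Spred1, an inhibitor of the ERK pathway, fell by 0.53. These counts rest on Mef2c-cKO replicate 6. Without it 2 immediate early factors were called higher and 3 lower (median -0.18) and 2 effectors higher and 7 lower (median -0.19), and with array quality weights the counts were 2 and 4 and 2 and 9. No cytosolic heat shock gene of 18 was called, Ddit3 rose by 0.34 and Atf6 fell by 0.32 among 22 genes of the unfolded protein response, and 4 of 16 glucocorticoid receptor targets fell, Zbtb16 most, by 0.99, and none rose. Without Mef2c-cKO replicate 6, 7 of these targets fell, and with the olfactory bulb score Zbtb16 was called.

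Genes on the neuropeptide list leaned up, with 6 of 18 higher and none lower (9.10% and 5.99% over all genes) and a median of 0.56. Nts, the neurotensin precursor, rose from 1.24, 1.03 and 0.63 to 3.67, 6.41 and 3.13 rescaled CPM (1.71, limma, adjusted p = 0.005), and Tac1, Pdyn, Crhbp, Igf1 and Pnoc by 0.53 to 1.09. Crhbp, a binding protein, and Igf1, a growth factor, stand on this list but are not neuropeptides. Striatal neurons express Tac1 and Pdyn too. The median of the 14 striatal markers was 0.60, of which Tac1 alone was a DEG, and their summed level was 886 to 1432 rescaled CPM in Mef2c f/f and 1042 to 1657 in Mef2c-cKO, ranges that overlapped. How far striatal tissue took part in the rises on the neuropeptide list was not tested. With the olfactory bulb score no gene of the neuropeptide list was called (median 0.67), and without Mef2c f/f replicate 1 or 3 there were 3.

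Microglial genes were higher. Of 14 markers 9 rose and none fell (9.10% and 5.99% over all genes), with a median of 0.47. C1qb, a complement subunit, went from 15.5, 15.1 and 15.3 to 22.4, 28.3 and 23.6 rescaled CPM (0.67, limma, adjusted p = 0.00437), Csf1r, the receptor that keeps microglia alive, from 56.3, 58.6 and 53.7 to 71.3, 75.4 and 73.6 (0.38, limma, adjusted p = 0.00648) and Trem2 from 5.01, 5.12 and 4.98 to 6.92, 8.25 and 7.97 (0.56, limma, adjusted p = 0.0102). The summed level of the list, 254 to 265 rescaled CPM in Mef2c f/f and 321 to 367 in Mef2c-cKO, did not overlap. At CS none of these genes was a DEG (median 0.72). The sum at CS was 226 to 268 rescaled CPM in Mef2c f/f and 275 to 908 in Mef2c-cKO, a wide spread within Mef2c-cKO. In the fit over all 13 libraries, with or without the score, no gene of the list was called, and without Mef2c f/f replicate 1, 2 or 3 there were 4, 4 and 5.

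Astrocytes showed Gfap, their intermediate filament and a sign of reactivity, at 50.4, 47.4 and 43.8 rescaled CPM in Mef2c f/f and at 142, 364 and 111 in Mef2c-cKO (1.91 ± 0.37 SE, limma, adjusted p = 0.0116), and Aqp4, their water channel, rose by 0.70. No other of the 14 astrocyte markers was called. Among oligodendrocyte genes Mog, a myelin protein, fell by 0.42 and Sox10 rose by 0.43, and the 18 others were not called. Of 12 meningeal fibroblast markers 4 rose and of 7 choroid plexus and ependymal markers 5 rose, and none fell, while 2 of 11 endothelial markers rose and 1 fell (median 0.01) and 1 of 10 pericyte and smooth muscle markers rose (median 0.08). Over all genes 9.10% rose and 5.99% fell. Summed levels were 89.5 to 125 and 130 to 177 rescaled CPM for the meningeal list and 11.98 to 15.1 and 18.2 to 32.6 for the choroid plexus and ependymal list, in Mef2c f/f and Mef2c-cKO in turn. Without Mef2c f/f replicate 2, 1 meningeal and 1 choroid plexus or ependymal marker rose, and with the score none did. Astrocyte, endothelial and pericyte markers were not called with the score either. Among 5 thalamic markers 1 rose, Prkcd, and among 5 of the claustrum and endopiriform area Ntng2 rose and Gng2 fell. Of 5 genes of red blood cells 0 were called after SD (limma, median 0.54), whereas 2 fell at CS (median -1.75).

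Among the protein machinery, 17 of 81 cytosolic ribosomal protein genes rose and 2 fell (median 0.18), Rps16 most, from 29.4, 31.3 and 32.7 to 51.8, 65.6 and 61.2 rescaled CPM (0.92, limma, adjusted p = 0.00102). Ribosomal protein genes have many processed copies in the genome, so their counts are uncertain. With the correction for GC content and length 6 rose and 5 fell (median 0.0074), with the score 4 rose, and without Mef2c f/f replicate 1 or 3, 5 or 6 rose. Of 75 nuclear-encoded respiratory chain genes 7 rose, by 0.30 to 0.52, a share close to the 9.10% over all genes. That count was 1 without Mef2c f/f replicate 1 or 3, 17 without replicate 2, 0 with the score, and 2 higher and 1 lower with the GC and length correction. Of 74 mitochondrial ribosomal genes 1 rose, Mrpl52, by 0.79. No Krebs cycle gene of 26 was called.

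**Figure D4:**
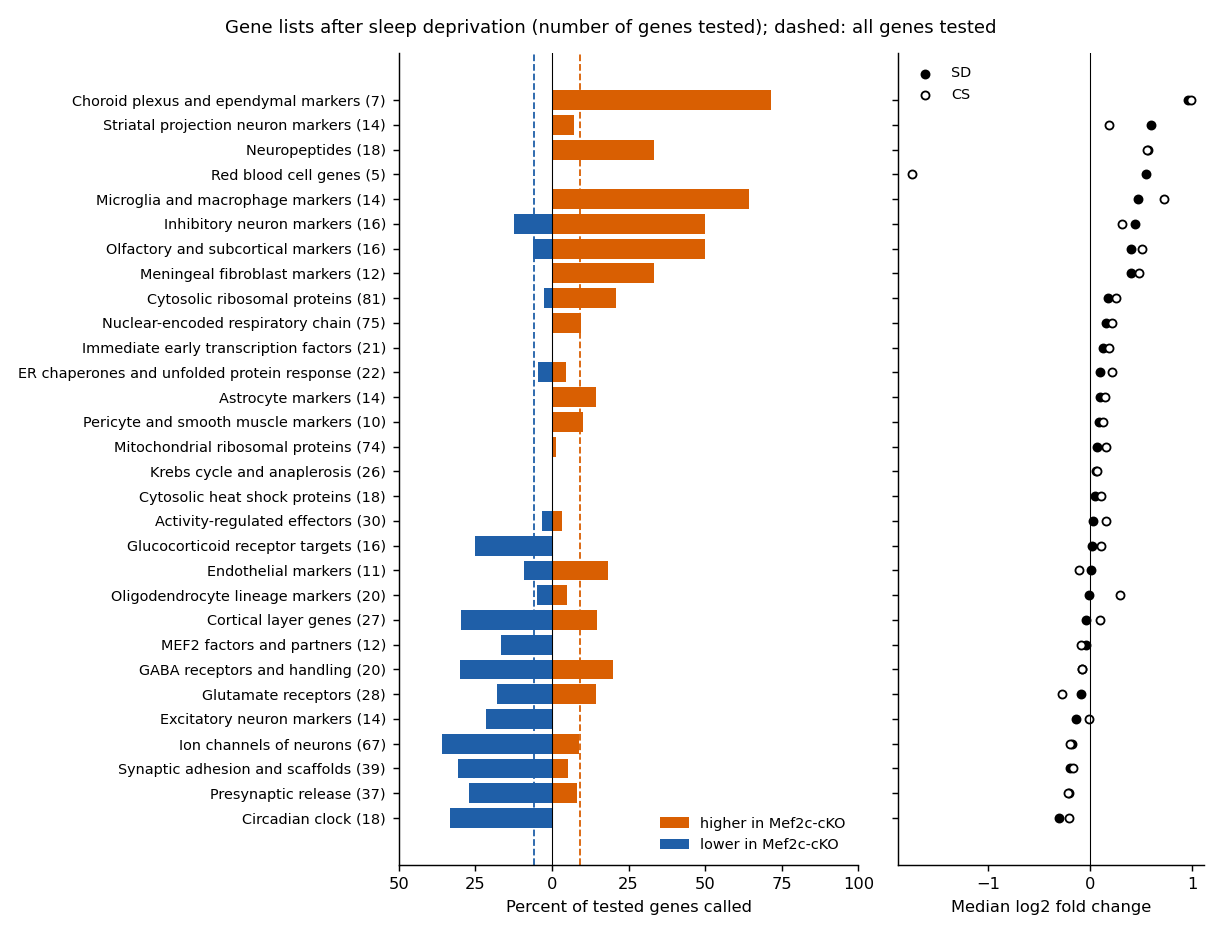
Left, percent of each list's tested genes (number in brackets) that were DEGs after SD, higher to the right and lower to the left, with dashed lines at 9.10% and 5.99%, the shares over all genes tested. Right, the median log2 fold change of each list after SD (filled) and at CS (open); clock, presynaptic, adhesion and channel genes lie lowest after SD and choroid plexus, striatal and neuropeptide genes highest.

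The same genotype comparison in mice with control sleep used separate libraries. It gave 973 DEGs of 12681 genes tested (7.67%), of which 402 were higher (3.17%) and 571 lower (4.50%). Of the 1927 DEGs after SD, 1865 were tested at CS, and 1759 of these had a fold change of the same sign. The 499 genes called in the same direction in both made up 25.9% of the DEGs after SD and 51.3% of those at CS, 179 of them higher and 320 lower. Across the 12595 genes tested in both, the log2 fold changes had a Spearman rho of 0.65, a description across genes, which are not independent replicates. Of the 20 largest rises after SD 14 were also DEGs at CS, and of the 20 largest falls 16. Lrp3 stood at 34.0 to 45.2 rescaled CPM in the 4 Mef2c f/f CS libraries and at 6413, 5916 and 5757 in Mef2c-cKO CS (7.21), beside 7.33 after SD. Tbx20 had no read in Mef2c f/f CS and 44.8, 56.7 and 37.2 rescaled CPM in Mef2c-cKO CS. Without Mef2c f/f CS replicate 2 there were 175 DEGs at CS and without Mef2c-cKO CS replicate 7 there were 171.

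Whether the genotype difference itself depended on sleep was tested as an interaction over the 13 libraries. Of 12860 genes 1 passed (0.00778%) in limma, where 1005 had an unadjusted p of at most 0.05, and edgeR also called 1 and DESeq2 59. That gene was Cep295, which lies on chromosome 9 (15316915 to 15357788, minus strand). It was at 68.5, 60.6, 60.9 and 55.3 rescaled CPM in Mef2c f/f CS and at 76.0, 69.5 and 66.1 in Mef2c-cKO CS, a difference of 0.20 beside 2.11 after SD (interaction 1.91 ± 0.11 SE, limma, adjusted p = 3.49e-06). The 3 Mef2c-cKO SD libraries, at 258 to 280, stood above all 10 other libraries of these genotypes. For 229 of the 1927 DEGs after SD the interaction had an unadjusted p of at most 0.05. Mog was the DEG whose direction differed between conditions, -0.42 after SD and 0.48 at CS, where it stood at 27.9 to 35.8 in Mef2c f/f and 42.7 to 47.4 in Mef2c-cKO, but its interaction did not pass (-0.90, limma, adjusted p = 0.16). Pvalb had -1.31 after SD and -0.71 at CS (limma, adjusted p = 0.076), and this difference did not pass either (interaction -0.60, limma, adjusted p = 0.631).

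**Figure D5:**
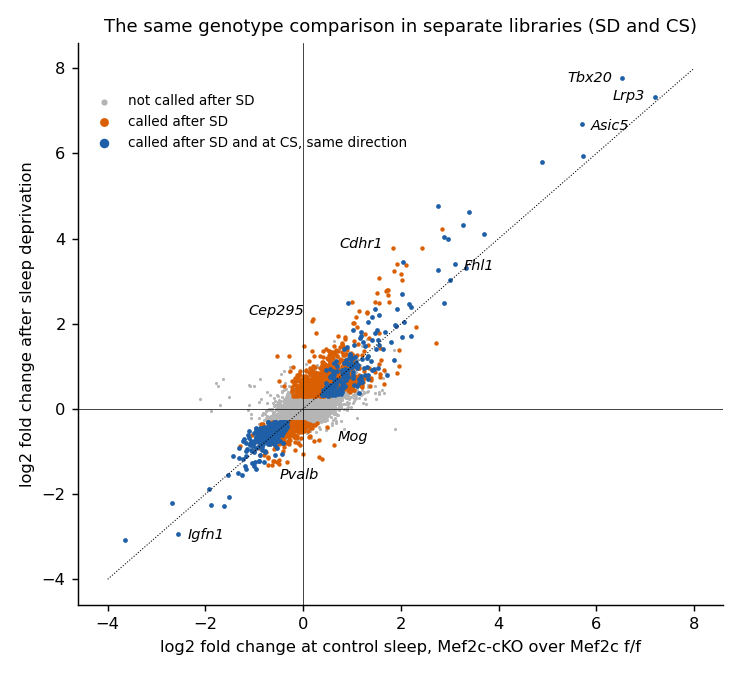
Log2 fold change of Mef2c-cKO over Mef2c f/f at CS (x axis, 4 against 3 libraries) and after SD (y axis, 3 against 3 libraries) for the 12595 genes tested in both, with the line of equal values dotted. The 499 genes called in the same direction in both (blue) lie along the line, and Cep295 (0.20 and 2.11) lies far above it.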

How the data were processed

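The deposited table holds CPM values, which the authors made from stranded paired-end mRNA libraries with Trimmomatic, STAR (mm10), HTSeq (uniquely mapped reads) and edgeR; the strand setting of the counting is not given in the sources used here. All 711645 values in it were whole reads within 0.01 once scaled, so depth was recovered. No columns were left unmapped. CPM was rescaled by median-of-ratios factors over the 33 libraries, 0.5 was added, and log2 values were fitted with limma 3.58.1 (trended prior, R 4.3.3), 3 against 3 libraries after SD, with the CS comparison and the interaction fitted apart. P-values were adjusted by Benjamini-Hochberg over all genes tested. edgeR 4.0.16 (quasi-likelihood) and DESeq2 1.42.0 were run on the recovered reads. The labels do not tie a library to more than its group and number, so p-values measure the spread between these samples.

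Named genes were Mef2c, the gene lists, the 20 largest rises and falls without overlap, the 10 smallest adjusted p, the 10 largest also called at CS and any gene called in the interaction; predicted genes were passed over. The members and lists were chosen with earlier results of these data known. Tested on simulated data for the SD comparison (12618 genes), the fit recovered 92% of 100 genes changed by 1 on the log2 scale and 19% of 100 changed by 0.5, with 6 false calls. The changed genes were drawn from those with a mean CPM of at least 5. Noise was simulated apart for each gene, without differences that many genes share within a library. Recovery and false calls may therefore be worse in the real data. Intervals and floors cover counting error only. Gene coordinates are those of GENCODE on GRCm38, and 2064 of 21565 symbols were not matched to it. Promoter sequences are from RefSeq. Some list members are not reported here.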

Additional observations from a re-analysis of the deposited data

Results flagged for a closer look

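In the 4 Mef2c f/f CS libraries, replicate 3 lay far from the rest of its group for Th (8.45 rescaled CPM), Calb2 (30.5), Eomes (5.60), Doc2g (6.65), Ms4a15 (6.18) and the olfactory bulb score (3.53). Of 11 such groups of 4 examined, 6 passed a limit that chance passes in about 1 in 20 single groups. All 6 concern the same library, and the score is made from these marker genes. They are therefore not separate tests and cannot be set against that rate. Cep295 differed in its genotype effect between SD and CS by 1.91 on the log2 scale, by the interaction test.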

How the results depend on the processing

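The count of DEGs after SD was 1280 with CPM of at least 5 in every library, 2972 with array quality weights, 1019 in the fit over all 4 groups and 228 with the olfactory bulb score, an alternative chosen after the data were seen. Leaving out 1 library gave 822 to 2447. The split of higher and lower genes moved by more than 10 percentage points with CPM as deposited, quantile normalization, the stricter filter (614 higher and 666 lower), the GC and length correction and the score (82 and 146). In the fit over 4 groups it was 513 and 506. At CS the count was 3402 with weights, 1487 with the GC and length correction, 2095 in DESeq2, 2167 over 4 groups and 1868 with the score, and 171 to 875 without 1 library. For the interaction it was 315 with weights, 5 with the GC and length correction, 59 in DESeq2 and 1 to 2 without 1 library. The cause of these changes was not tested.

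Of 1834 values of 157 named genes under the planned settings, 1726 kept their direction and side of the threshold and 92 lost the call; without 1 library it was 803 and 125 of 942, and with the score 55 and 87 of 157. With the score, values changed sign for Calb2 (-0.16), Eomes (-0.55), Doc2g (-0.18) and Ms4a15 (-0.74), which are genes of the score itself. They also changed sign for Frmd7 (-0.73), Adamts19 (-0.29), Vipr2 (-0.63), Gad1 (-0.14), Dlx1 (-0.40), Vip (0.22), Syn3 (-0.18), Gabra5 (-0.20), Mdga1 (-0.040) and Arc (0.60). With weights the sign changed for Mef2d (-0.062), Slc17a7 (-0.075), Fos (-0.53) and Vip (0.033), and with the GC and length correction for Mef2d (-0.031), Slc17a7 (-0.026) and Sst (-0.0037). Leaving out 1 library also turned the sign of 5 of the genes that were not called, with values from -0.054 to 0.16 for Mef2c, from -0.0039 to 0.087 for Mef2d, from -0.035 to 0.19 for Slc17a7, from -0.60 to 0.93 for Fos and from -0.58 to 0.21 for Arc. None of Mef2c, Mef2d, Slc17a7, Fos, Arc, Sst and Vip was a DEG. For the genotype comparisons within SD or CS no fit with a replicate block could be made, since f/f and Mef2c-cKO share no number. For the interaction, SD and CS libraries share numbers 1, 2 and 3 in Mef2c f/f and 5 and 7 in Mef2c-cKO. Deviations of same-numbered libraries correlated by 0.039 to 0.22, over 0.1 in 3 of 5 pairs, and 3 of 6 Mef2c f/f libraries were closest to their own number, so the numbers were not taken as pairs. A replicate block chosen after the data were seen gave 3 genes, all with a positive interaction, Cep295 among them (1.93, limma, adjusted p = 0.000857). Genes with few reads are limited by depth, most in Mef2c-cKO replicates 5 and 6.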
